A study of Mus musculus with 4 samples.

Results

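The regions described here are the places near the ends of protein-coding genes where SOX2 chromatin immunoprecipitation was enriched in every library made from mouse cortex. SOX2 ChIP-seq, in which chromatin is pulled down with an antibody and its DNA is sequenced, was done on cortex of 2-month-old male wild-type C57BL/6 mice, with 3 SOX2 immunoprecipitated (IP) libraries and 1 input library of unselected chromatin. A field of the labels, filled in for the input too, names SOX2 as a factor the samples were transduced with, a step the tissue protocol does not mention. The cortex was taken whole, so cells that have the factor and cells that lack it were pooled, and few cells with strong binding cannot be told apart from many with weak binding. Overlapping peaks of the 3 IP libraries (1 bp was enough) were joined into chains, and 9334 of 27083 merged regions held a peak of every library, called reproducible here. A further step dropped the single reproducible region of chromosome Y. Of the remaining 9333, 1847 (19.8%) had their centre within 1 kb of either end of a RefSeq protein-coding gene span on the mm10 build, and these are the gene-end regions. Among the reproducible regions they were chosen by position alone, so their sequence and the kind of gene end were free to vary. Their strength could vary only above the peak threshold of each library.

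SOX2 belongs to the SOX transcription factors and contacts DNA through a high mobility group domain, with a preference for short sites of the kind ACAAAG or ACAATG. In the brain it is best known from neural stem cells, and astrocytes, glial cells that support neurons, keep making it. Many of its known sites are enhancers, which act on genes from a distance. The start of a gene carries its promoter, where RNA polymerase II is loaded, whereas the finish is where the transcript is cleaved, so both kinds of gene end differ in function.

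The sequences below are the stretches of promoter covered by some of the strongest gene-end regions, shown as examples and not as a sorting of the regions. Of the 20 strongest regions that covered a promoter, 8 held ACAAAG or ACAATG in the promoter window and 10 held TCTCGCGA. These counts share 2 regions with both strings, and 4 regions held neither. Over all promoters, 25.2% held ACAAAG or ACAATG. The sequences come from the RefSeq promoter table of the GRCm38.p6 build, which has the coordinates of mm10 and holds 250 bases before to 50 after a listed transcription start. They are written 5′ to 3′ on the strand of the gene. Capitals mark the SOX hexamers ACAAAG and ACAATG on either strand, in runs of 6, and the element TCTCGCGA on either strand, in runs of 8 or 10, because the element overlaps its own reverse complement in a longer palindrome. The first pair comes from chr5:108065502-108065667 (plus strand) and chr10:84755944-84756097 (plus strand), and each holds 1 SOX hexamer.
Mtf2: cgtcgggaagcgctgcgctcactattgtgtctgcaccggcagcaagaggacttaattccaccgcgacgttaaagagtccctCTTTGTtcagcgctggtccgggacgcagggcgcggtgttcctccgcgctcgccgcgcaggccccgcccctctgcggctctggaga
Rfx4: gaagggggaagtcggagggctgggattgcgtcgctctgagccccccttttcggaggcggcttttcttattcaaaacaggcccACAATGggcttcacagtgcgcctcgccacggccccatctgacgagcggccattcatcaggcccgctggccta

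The next 4, also among the strongest, hold no SOX hexamer in the covered stretch (Psmd5 has 1 elsewhere in its promoter window) and carry the element TCTCGCGA instead. They lie at chr3:105959248-105959415 (minus strand), chr9:108516966-108517136 (plus strand), chr7:24884507-24884667 (plus strand) and chr2:34870939-34871113 (minus strand). The element is known as a feature of promoters of widely expressed genes, where the protein BANP binds it.
Atp5pb: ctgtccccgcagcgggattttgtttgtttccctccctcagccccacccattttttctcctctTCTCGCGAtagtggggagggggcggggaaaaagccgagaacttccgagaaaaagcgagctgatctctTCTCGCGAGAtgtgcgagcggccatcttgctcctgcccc
Qrich1: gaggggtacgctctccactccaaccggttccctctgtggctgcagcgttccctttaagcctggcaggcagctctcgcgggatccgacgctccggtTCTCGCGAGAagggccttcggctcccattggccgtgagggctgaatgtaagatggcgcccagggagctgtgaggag
Rps19: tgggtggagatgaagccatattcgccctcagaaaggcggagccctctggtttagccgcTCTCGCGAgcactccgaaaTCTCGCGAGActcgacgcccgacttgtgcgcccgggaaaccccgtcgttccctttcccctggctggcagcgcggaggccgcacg
Psmd5: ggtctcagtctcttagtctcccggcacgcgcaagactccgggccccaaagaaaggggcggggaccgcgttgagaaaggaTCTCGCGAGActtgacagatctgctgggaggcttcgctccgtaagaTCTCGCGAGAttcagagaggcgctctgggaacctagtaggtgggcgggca

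The last 4 are the strongest covered promoters among astrocyte markers (Hepacam), neural progenitor genes (Hes5), Notch genes (Nrarp) and clock genes (Nr1d1) that were not shown above. They lie at chr9:37367484-37367655 (plus strand), chr4:154960673-154960857 (plus strand), chr2:25180595-25180779 (plus strand) and chr11:98775328-98775561 (minus strand). Hes5 held 3 SOX hexamers, Hepacam and Nr1d1 1 each, and Nrarp none of either, with 1 match to the octamer ATGCAAAT of POU factors and 1 each to AACAAT, a further SOX-type string, and TTATGCAA, as in joint SOX and POU sites.
Hepacam: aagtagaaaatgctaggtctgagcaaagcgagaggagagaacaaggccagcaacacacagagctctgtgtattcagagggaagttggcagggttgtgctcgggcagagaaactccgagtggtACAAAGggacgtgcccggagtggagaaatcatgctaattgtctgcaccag
Hes5: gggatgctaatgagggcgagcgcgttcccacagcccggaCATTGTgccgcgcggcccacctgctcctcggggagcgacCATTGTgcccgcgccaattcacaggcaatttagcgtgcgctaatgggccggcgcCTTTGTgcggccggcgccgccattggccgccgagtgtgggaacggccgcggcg
Nrarp: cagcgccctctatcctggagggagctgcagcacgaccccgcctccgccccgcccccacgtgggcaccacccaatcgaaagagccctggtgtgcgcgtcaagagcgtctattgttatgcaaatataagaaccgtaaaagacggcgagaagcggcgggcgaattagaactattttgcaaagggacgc
Nr1d1: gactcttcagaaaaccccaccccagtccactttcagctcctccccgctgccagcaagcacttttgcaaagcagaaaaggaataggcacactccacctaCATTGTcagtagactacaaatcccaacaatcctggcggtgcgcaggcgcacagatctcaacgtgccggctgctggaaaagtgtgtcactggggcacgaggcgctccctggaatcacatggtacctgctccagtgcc

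The first comparison asked which kind of gene end the regions occupied, and they lay almost entirely at gene starts. The promoter table gives the strand of 17273 of the 21627 protein-coding genes. Within 1 kb of 1432 regions (77.5%) there was a known gene start, 116 (6.28%) had known finishes only, and for 299 (16.2%) the kind of end was not known. Among the 1548 regions of known kind, 92.5% were thus at a start, with a 95% Wilson interval of 91.1% to 93.7% that covers counting error only. A region near both a start and a finish was counted as a start. Of the 116 finish-only regions, 5 lay within 1 kb of any transcription start in the promoter table, protein-coding or not. Regions near a known gene start had already been left out of this kind, with the strand taken from the same table. A low count was thus largely set in advance, and starts that the table lacks cannot be seen. Of the other reproducible regions, chromosome 18 aside, 7.19% lay that close to a listed start.

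Regions at starts were tightly placed and regions at finishes were not. Where the nearest end was a start (1391 regions), the centre lay a median of 38 bp upstream of it, with the middle 50% between 112 bp upstream and 51 bp into the gene. Their centre was within 100 bp of the start in 732 (52.6%) and upstream of it in 62.1%. Where the nearest end was a finish (132 regions), the median distance in either direction was 455 bp, and 16 (12.1%) lay within 100 bp. The peak of the distribution at starts and the flat one at finishes are seen in the plot of distances.

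**Figure D1:**
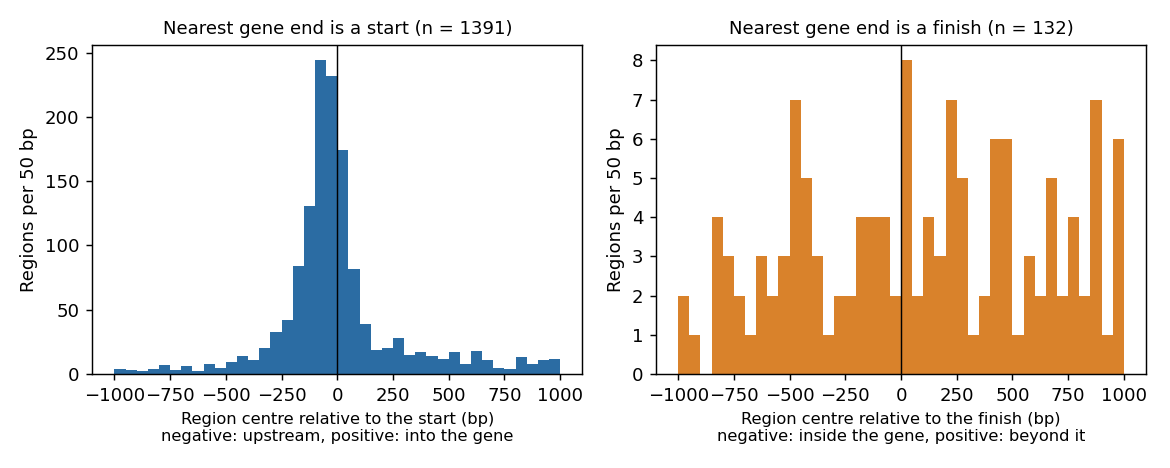
Number of gene-end regions per 50 bp of distance between the region centre and the nearest gene end, where that end is a start (left, 1391 regions) or a finish (right, 132 regions). At starts the centres pile up just upstream, with a median 38 bp upstream, and at finishes they spread over the whole 2 kb.

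Most gene-end regions belonged to 1 gene. The end of only 1 protein-coding gene lay within 1 kb of 1525 regions, ends of 2 genes near 317 and of 3 genes near 5. In 189 regions (10.2%) the starts of genes on opposite strands were both in reach, as in divergent promoters that fire in both directions. In all, 2102 of 21627 protein-coding genes (9.72%) had a reproducible region within 1 kb of an end. By kind of end, 9.24% of genes of known strand had one at the start and 1.13% at the finish. There were 72 genes with 2 such regions and none with more, and 28 genes had different regions at start and finish. The span of genes with a region had a median of 19.4 kb, against 17.3 kb for all protein-coding genes.

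The second comparison asked whether gene-end regions were as strong as reproducible regions elsewhere, and they were weaker in each library by a small amount. Strength is given in normalized tags, the authors' number of tags (placed reads) in a peak scaled to a library of 10000000 tags, taken from the strongest peak of a region in each library. The libraries held 32492927 to 41875666 tags, so that 1 tag was worth 0.239 to 0.308 normalized tags. The median gene-end region held 7.43, 7.69 and 6.45 normalized tags in IP libraries 1, 2 and 3, and the median of the 7486 other reproducible regions was 8.26, 8.0 and 6.93. The gene-end median was the lower in all 3, with a difference of -0.10 ± 0.048 on the log2 scale (SD, n = 3), a ratio of 0.930. An exact sign permutation test over the 3 libraries gave p = 0.25 (two-sided), the smallest p that 3 libraries allow, so the design cannot reach 0.05. Nothing in the labels says whether the libraries came from separate animals, and the spread between them may be technical.

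Enrichment over the input showed a larger gap in the same direction. The median fold over the input, the authors' value, was 13.3, 13.7 and 10.6 at gene ends against 15.8, 15.2 and 12.6 elsewhere, a difference of -0.22 ± 0.055 on the log2 scale (SD, n = 3, exact sign permutation p = 0.25). The input itself had a median of 2 tags in both kinds of region in every library. Its mean was 2.23, 2.20 and 2.30 tags at gene ends against 2.13, 2.13 and 2.19 elsewhere, in values that the authors scaled to the IP library for library 2 only. The focus ratio, the fraction of tags that sit where the peak centre predicts, had medians of 0.756, 0.750 and 0.744 at gene ends and 0.744, 0.742 and 0.737 elsewhere, higher by 0.009 ± 0.0026 (SD, n = 3, exact sign permutation p = 0.25). Taken as a whole, gene-end regions were therefore slightly weaker and slightly more focused in all 3 libraries. In fold, the 116 finish-only regions among them went the other way. Their medians of 17.2, 18.8 and 14.0 were above those of the regions elsewhere in each library. Every region counted here had to pass the peak threshold in each library, so weak regions of either kind are missing from both sides.

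Gene-end regions took a smaller share of the strongest reproducible regions than of the weak ones. When the reproducible regions were ranked by their mean rank of normalized tags and divided in deciles, 141 of 934 (15.1%) in the strongest decile were gene-end regions. Deciles 2 to 4 had 15.8% to 17.6%, deciles 5 to 8 had 20.8% to 22.7%, decile 9 had 23.5% and decile 10, the weakest, 22.3%. No test of this trend was made. Regions with a peak in fewer libraries lay at gene ends in similar shares: 20.5% of the 12251 found in 1 library and 21.7% of the 5496 found in 2, against 19.8% of those found in all 3. Starts also dominated there, with 93.4% and 94.6% of the regions of known kind.

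**Figure D2:**
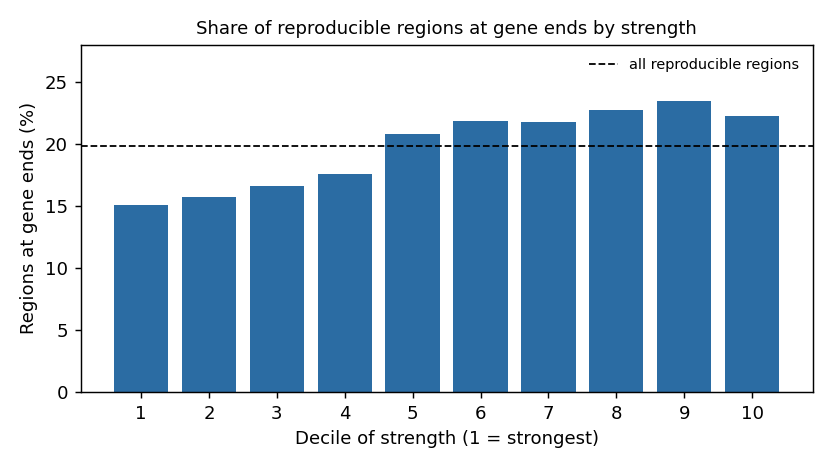
Percent of reproducible regions whose centre is within 1 kb of a gene end, by decile of strength from 1 (strongest) to 10 (weakest), with the share over all reproducible regions (19.8%) as a dashed line. The strongest decile is at 15.1% and decile 9 at 23.5%.

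In normalized tags, regions at starts and at finishes differed by less than the spread between libraries. The median at starts was 7.43, 7.69 and 6.45 normalized tags in IP libraries 1, 2 and 3, and at finishes 7.98, 7.69 and 6.57, a difference of -0.043 ± 0.053 on the log2 scale (SD, n = 3, exact sign permutation p = 0.50). The sign of this difference turned in 2 alternative settings, to 0.072 and 0.014. Regions between divergent starts had the same median tags as all regions at starts. The median fold over the input did differ between the kinds of end. It was 17.2, 18.8 and 14.0 at the 116 finish-only regions against 13.15, 13.6 and 10.6 at starts, higher in all 3 libraries. The mean input was 1.90, 1.84 and 1.97 tags at finishes against 2.26, 2.25 and 2.35 at starts. This difference in fold was not tested. Over all 1847 gene-end regions the mean of the 3 libraries ran from 3.78 to 43.1 normalized tags, with a median of 7.15, and 80% lay between 4.97 and 13.8. Library 3 gave the lowest of the 3 values in 1072 regions (58.0%).

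The strongest gene-end region lay at Cdk12, a kinase that acts on the tail of RNA polymerase II, at 258.5 bp into the gene from its start. It held 39.4, 49.9 and 40.1 normalized tags in IP libraries 1, 2 and 3. At Mtf2, a Polycomb-like protein that helps to place the repressive complex PRC2, the promoter region shown above held 45.1, 41.2 and 37.0. Its input was 7, 6.9 and 7 tags, above the median of 2, so the fold over the input was 21.2, 19.4 and 17.4. The divergent promoter of Atp5pb, a subunit of the mitochondrial ATP synthase, and Wdr77, a partner of an arginine methyltransferase, held 37.7, 42.8 and 34.4 tags with 1 input tag, a fold of 124, 141 and 113. Values of this size were reached in all 3 libraries, and the ranges of these 3 regions overlapped.

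Of the 20 strongest gene-end regions, 2 lay at a finish, where finish-only regions made up 6.28% of all 1847. The region at Thbs3, a secreted thrombospondin, had 39.4, 45.9 and 29.9 normalized tags, 756 bp inside the finish and 1024 bp from the nearest listed start of any gene. Beyond the same finish lay a further region, with 26.1, 19.7 and 22.7, which lay 390 bp from a listed start. The other was 856 bp beyond the finish of Fezf2, a factor of deep-layer cortical neurons, with 29.7, 41.5 and 33.7. The remaining 18 regions were centred within 300 bp of a start. Among these, Qrich1 held 33.6, 46.2 and 33.9 tags, and Myh14, a non-muscle myosin heavy chain, held 33.6, 32.6 and 26.5. Rps19, a protein of the small ribosomal subunit, held 31.9, 33.2 and 26.0, and Psmd5, a chaperone of proteasome assembly, 26.1, 36.3 and 27.5. All 20 had means of 24.3 to 43.1. Of the progenitor list it held Rfx4 and Hes5, of the Notch list Hes5 and Nrarp, and of the cytosolic ribosomal list Rps19 and Rps7. Rbm39, an RNA-binding splicing protein, Hmgb1, an abundant chromatin protein, Ptma and Micos10 were also in it. Gadd45g, a stress-induced growth regulator, Slc25a18, a mitochondrial glutamate carrier, and Acot1, an acyl-CoA thioesterase, completed it.

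**Figure D3:**
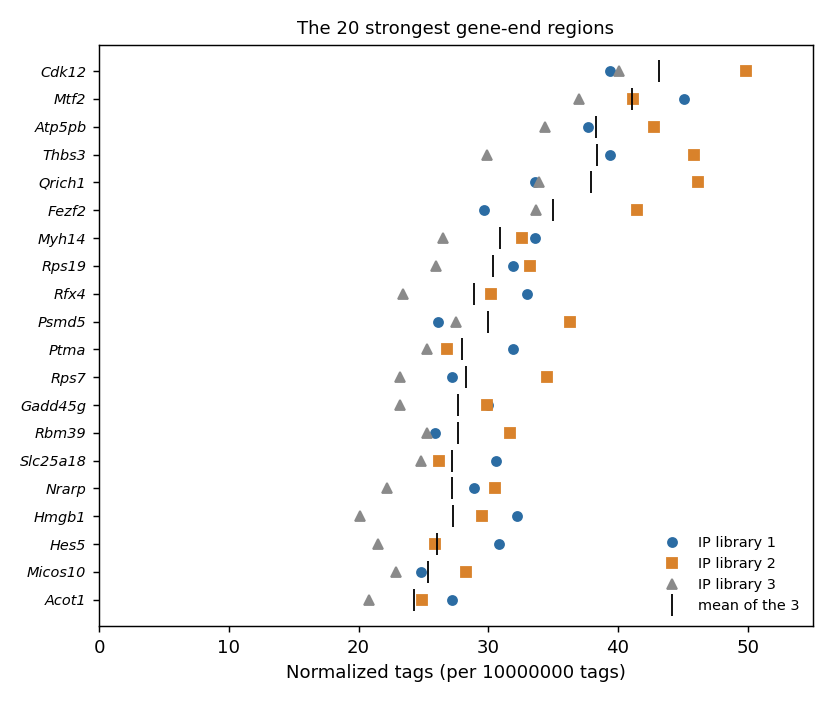
Normalized tags of the 20 strongest gene-end regions in IP library 1 (circles), 2 (squares) and 3 (triangles), with the mean as a vertical bar, named by the nearest gene end. Means run from 24.3 (Acot1) to 43.1 (Cdk12), and library 3 is the lowest of the 3 in 16 of the 20.

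The third comparison asked which kinds of genes carried a region at an end. For each of 27 gene lists the share of members with such a region was set beside the 9.72% of all protein-coding genes. That background counts many genes that the cortex does not use, among them 1463 olfactory and vomeronasal receptor genes, of which 0 had a region. No test of the lists was made, so the shares are descriptions.

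Genes of basic cell functions often had a region, mostly at the start. Splicing factors had a region at 27 of 66 (40.9%), the highest share of the 27 lists in the main setting, 23 of them at a known start, and a median strength of 7.09 normalized tags, near the 7.17 of all genes with a region. Srsf7, an SR protein whose start faces that of Gemin6, held 23.9, 26.2 and 17.7 tags, Prpf38a 12.7, 13.8 and 11.2, and Hnrnph3 10.5, 15.7 and 12.9. When peaks had to reach 8-fold over the input, the count fell to 10 of 66 (15.2%), below the FGF and EGF, cytosolic ribosomal, astrocyte and progenitor lists. The oxidative phosphorylation, chaperone, mitochondrial ribosomal and proteasome lists were then slightly above it too, at 15.4% to 15.6%. With the stronger 0.5 of peaks the share of splicing factors was 22.7%, against 23.3% for progenitor genes, so the order of the lists depended on the peak threshold. The weakest member, Hnrnpd, held 4.40, 4.0 and 4.54 tags. Heat shock and chaperone genes followed with 23 of 77 (29.9%), led by the co-chaperone Dnajb4 (17.9, 27.4 and 19.6), the chaperone Hspa4 (15.1, 24.3 and 17.7) and the chaperonin subunit Cct8 (14.9, 19.1 and 18.9). The start of Dnajb4 is shared with that of Fubp1, so the region could be counted to either.

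Genes of the protein-making machinery had regions as well. Cytosolic ribosomal protein genes had a region at 24 of 84 (28.6%), with a median of 9.28 normalized tags, above that of all genes with a region. After Rps19 came Rps7 (27.2, 34.5 and 23.2) and Rpl26 (20.6, 19.4 and 21.3). Mitochondrial ribosomal proteins had 20 of 78 (25.6%), led by Mrps10 (22.6, 22.5 and 15.0), Mrpl10 (14.3, 14.2 and 12.4) and Mrpl30 (14.6, 12.6 and 11.2). Translation initiation factors had 12 of 55 (21.8%), among them the exon junction helicase Eif4a3 (24.2, 28.9 and 19.1), Eif5 (17.1, 19.4 and 11.2) and Eif4g2 (15.1, 16.6 and 9.79).

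Proteasome, respiratory and transcription genes were next. The proteasome list had 8 of 39 (20.5%), and 13 without library 3, with Psmb2 (22.8, 19.7 and 17.7) and Psmb6 (16.5, 9.54 and 12.2) after Psmd5. Oxidative phosphorylation genes had 19 of 77 (24.7%), and beyond Atp5pb the strongest were weaker, with 12.7, 11.1 and 10.0 tags at Ndufa7, whose start lies by that of Rps28, and 11, 11.7 and 8.36 at Ndufv1. RNA polymerase and general transcription factor genes had 13 of 64 (20.3%), led by Polr3e (12.4, 10.5 and 11.5), Polr2e (9.91, 11.1 and 8.84) and Tbp (9.91, 9.23 and 8.36). Zinc finger genes of the Zfp series had 63 of 397 (15.9%) with a low median of 6.10 tags, and the strongest were Zfp24 (17.6, 21.2 and 17.4), Zfp775 (15.7, 17.5 and 13.9) and Zfp317 (13.8, 17.2 and 13.6). The Polycomb and Trithorax list, beside Mtf2, had only 3 further genes among its 37 (4 in all, 10.8%), near the background: Rbbp4 (11.3, 11.4 and 12.9), Jarid2 (9.91, 8.31 and 6.69) and Men1 (7.16, 6.46 and 6.69). Without library 3, which lets in regions found in libraries 1 and 2 only, that list had 9 of 37 (24.3%), against 12.4% of all genes.

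Some genes of the astrocyte and progenitor lists also carried regions, mostly at their starts. With 30 genes in each list, the gap to the background share rested on a few genes and was not tested. Astrocyte markers had 7 of 30 (23.3%), with a median of 10.1 normalized tags and 6 at a known start. Slc1a2, the main glutamate transporter of astrocytes, led with 17.3, 19.4 and 11 tags at 268.5 bp from its start. Ndrg2 (12.9, 13.5 and 11) and the adhesion protein gene Hepacam (14.9, 9.85 and 11.2) followed. Sox2 itself had a region over its own start, on chromosome 3 from 34649899 to 34650137, with 8.53, 12.3 and 9.55 tags. Aldoc, a glycolytic enzyme, Glul, which makes glutamine, and Atp1b2, a subunit of the sodium pump, had 9.65 ± 0.716, 6.46 ± 0.834 and 4.52 ± 0.372 (SD, n = 3).

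Progenitor genes had the same share, 7 of 30 (23.3%), and all 7 were at starts. Rfx4, a factor of neural tube and cilia development, held 33.0, 30.2 and 23.4 normalized tags with its centre 9.5 bp from the start. Hes5, a Notch effector that blocks neuronal differentiation, held 30.8, 25.9 and 21.5. Fabp7, a fatty acid binding protein of radial glia, held 24.8, 20.3 and 11.5, with a value in library 3 below both others. Sox1, Msi2, Zbtb20 and Lrig1 had means of 7.14 to 9.35. Sox1 and Sox2 were the only ones of 19 SOX family genes with a region at an end (10.5%), near the 9.72% of all protein-coding genes. Without library 3 there were 4 of 19 (21.1%), against 12.4% of all genes. With a required overlap of 0.5 of each peak there was 1 (5.26%), against 7.67% of all genes.

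Of the signalling lists, those of Notch and of FGF and EGF receptors were above the background share. The Notch list had 7 of 30 (23.3%): the feedback inhibitor Nrarp (28.9, 30.5 and 22.2 tags), Hes5, the effector Heyl (16.8, 12.9 and 11.7), Dtx1, the ligand Jag1, Hes6 and the coactivator Maml1. The last 4 had means of 4.67 to 8.50. The FGF and EGF list had 6 of 30 (20.0%), all of them feedback regulators or targets: Spry4 (23.7, 25.2 and 16.0), Spred1 (17.9, 16.6 and 15.5), Dusp6 (14.9, 16.9 and 13.9), Etv4, Spry2 and Dusp4. No receptor, ligand or kinase of that list had a region at an end.

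The Wnt, Hedgehog, clock and immediate early lists had shares near the background when all 3 libraries were required and the window was 1 kb. The Wnt list had 3 of 32 (9.38%), the receptor Fzd2 (11.3, 12.0 and 10.5), the kinase Gsk3b (8.81, 8.0 and 9.31) and Lgr4 (5.23, 5.54 and 4.30), but 7 of 32 (21.9%) without library 3. The Hedgehog list had 2 of 18 (11.1%), the co-receptor Gas1 (20.6, 18.8 and 16.0) and the transducer Smo (8.81, 11.1 and 9.55). The clock list had 2 of 22 (9.09%), the repressors Nr1d1 (9.91, 8.93 and 8.12) and Nr1d2 (7.43, 7.39 and 5.25). It had 4 of 22 without library 2 and 7 of 22 (31.8%) without library 3, against 12.4% of all genes in the latter. Immediate early genes, which neurons induce by activity, had 3 of 26 (11.5%), with Fos (14.3, 15.4 and 14.6), Jun (5.51, 5.54 and 6.21) and Klf4 (3.85, 6.46 and 4.78), and 6 without library 3. With a 2 kb window the Wnt, Hedgehog, clock and immediate early lists had 15.6%, 16.7%, 18.2% and 26.9%, against 11.6% of all genes. The Kruppel-like and SP list and the POU and RFX list had higher shares in the 1 kb window. Of Kruppel-like and SP factor genes 5 of 26 (19.2%) had a region, led by Klf7 (15.1, 14.8 and 12.2) and Sp3 (8.53, 10.5 and 8.36), and Sp4 had 7.16, 8.31 and 5.01. Of POU and RFX genes 4 of 23 (17.4%) had one, and after Rfx4 came Pou2f1 (7.43, 8.93 and 6.69) and Pou3f2 (7.71, 6.77 and 6.69).

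In the main setting, the marker lists of neurons, microglia, oligodendrocytes, endothelial and mural cells and hepatocytes were under the background share. With 23 to 32 genes per list, each gap rested on a few genes and was not tested, so it is not a cell-type result. The neuron list was below its background in 8 of 10 alternative settings. Neuron markers had 2 of 32 (6.25%), Fezf2 and the kinase gene Camk2a (6.88, 6.46 and 6.21), neither at a known start. Microglia markers had 1 of 23 (4.35%), the purine receptor gene P2ry12 (4.68, 6.16 and 4.78). The lists of oligodendrocyte lineage (26 genes), endothelial and mural cells (23) and hepatocytes (29) had 0. With 1 library left out, the oligodendrocyte list reached 2 (without library 3), the microglia list 2 (without library 1) and the hepatocyte list 1 (without library 2). In 10 alternative settings the share stayed above its background in each of them for the lists of astrocytes, progenitors, Notch, FGF and EGF, splicing, chaperones, both ribosomal lists, initiation factors, respiration, the proteasome, RNA polymerase, Zfp genes and POU and RFX genes. The Wnt, Hedgehog, SOX, clock, Kruppel-like, immediate early, Polycomb and neuron lists fell below it in 1 to 8 settings, and the oligodendrocyte, microglia, endothelial, hepatocyte and receptor lists in all 10.

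**Figure D4:**
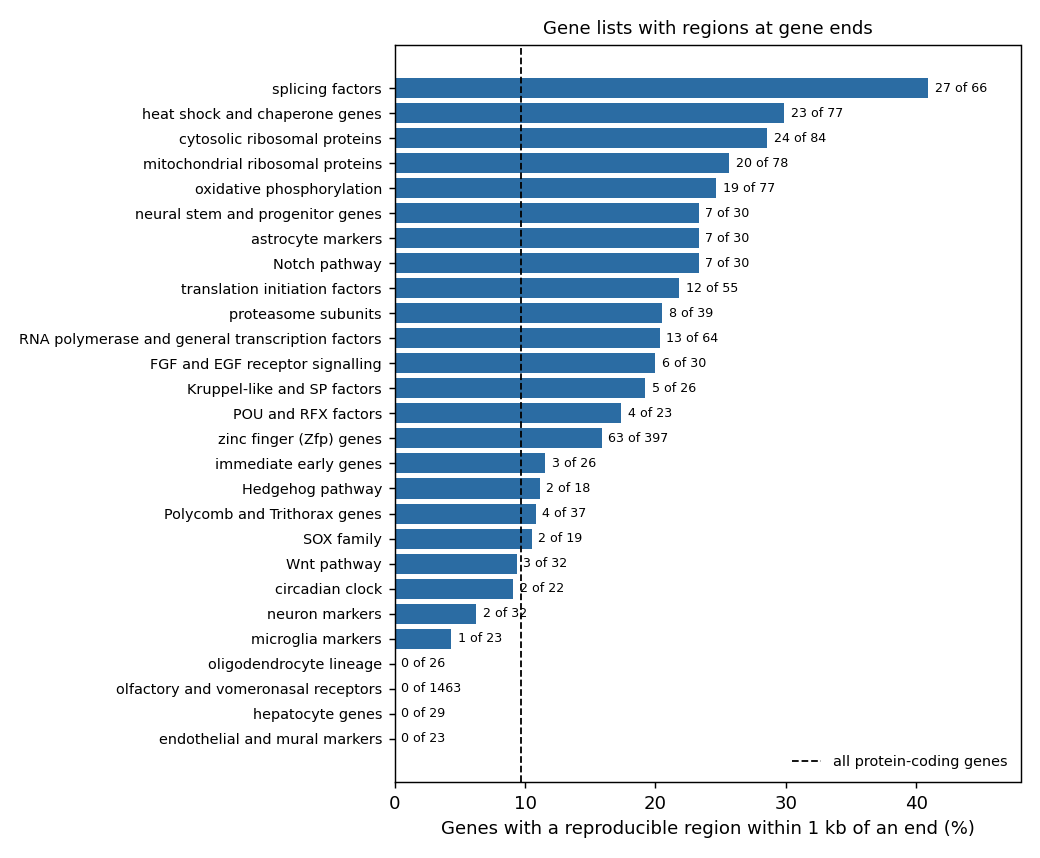
Percent of the genes of each list with a reproducible region within 1 kb of an end, with the number of genes, and the share over all protein-coding genes (9.72%) as a dashed line. Splicing factors reach 40.9%, astrocyte markers, progenitor genes and Notch genes 23.3%, and 4 lists are at 0.

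The fourth comparison asked what the promoters under these regions have in common. Of the 1847 regions, 868 covered at least 150 bases of 1 or more of the 21019 protein-coding promoter windows of 300 bases, 992 windows in all. Covered promoters were rich in CG pairs, with a median ratio of observed to predicted CG of 0.832 against 0.573 over all promoters, and their G and C content was 60.3% against 56.7%. TATA boxes (TATAAA) were rarer, in 5.34% against 12.7%. Within ranges of G and C content the difference was smaller where most covered promoters lay. It was 7.11% against 8.95% between 50% and 60% G and C, and 2.79% against 3.96% between 60% and 70%. Below 50% it was 17.6% of 68 covered promoters against 29.8%, and at 70% or more 0% of 86 against 1.82%. The other 979 regions were not examined for sequence. For every motif, both strands were searched, and a match is a string of letters and not a shown binding site.

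The letter string that set covered promoters apart most was not that of SOX2. The element TCTCGCGA was in 126 of 992 covered promoters (12.7%, 95% Wilson interval 10.8% to 14.9%) and in 298 of all 21019 (1.42%), a ratio of 8.96. Seen from the other side, 42.3% of all promoters with the element were covered by a gene-end region, against 4.72% of all promoters. The element was added to the search after the sequences of the strongest regions had been seen, and without Atp5pb, Qrich1, Rps19 and Psmd5 the share was 12.3%. It lay close to the middle of the region: the nearest match was a median of 15.5 bp from the centre, and within 50 bp in 92.9% of promoters. For the SOX hexamers this was 31 and 31.5 bp, with 64.2% and 66.4% within 50 bp, and for the TATA box 57.5 bp and 39.6%.

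The element was more frequent under strong and reproducible regions. It was in 28.8% of the 330 covered promoters with the strongest regions, in 5.44% of the next 331 and in 3.93% of the weakest 331. With 1 promoter per region, 10 of the 20 strongest and 27 of the 50 strongest held it. These counts include the 4 genes whose sequences prompted the search. Without them it was in 6 of 16 and 23 of 46, and in 27.7% of the strongest group of promoters. Promoters covered by gene-end regions of only 1 or 2 libraries held it in 2.57% and 2.62%, against 12.7% for those of all 3. The 95 regions with the element and no SOX hexamer in the promoter window had medians of 11.3, 12.9 and 10.0 normalized tags in IP libraries 1, 2 and 3. Those with a SOX hexamer and no element (274) had 8.39, 8.16 and 6.69, and those with neither (485) had 6.61, 6.77 and 5.73. The 14 with both had 10.5 ± 1.86 (SD, n = 3). This order, element above SOX above neither, held in each library. The mean input was 2.68, 2.43 and 2.12 tags in the same order, and its part in the strength was not tested. Beyond those already named, the strongest regions with the element were at Micos10 (24.8, 28.3 and 22.9), Ube2d3 (23.9, 28 and 21), Eif4a3, Denr (21.7, 28.9 and 19.8), Mdh2 (21.5, 26.8 and 20.3) and Mapk14 (24.2, 21.9 and 20.3). Of 15 cytosolic ribosomal protein genes with a covered promoter, Rps19 among them, 9 held the element. In other lists of basic functions it was in 1 of 12 mitochondrial ribosomal genes, 2 of 14 of oxidative phosphorylation, 2 of 12 splicing factors and 1 of 8 chaperone genes. It was also in 2 of 6 initiation factors, 1 of 5 proteasome genes and 1 of 8 RNA polymerase and general transcription factor genes. The share over all covered promoters was 12.7%, and these lists were too small to compare with it. The astrocyte and progenitor lists had 3 and 2 covered genes, too few to compare.

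SOX hexamers were also more frequent, by a smaller margin. At least 1 of ACAAAG and ACAATG was in 317 of 992 covered promoters (32.0%) and in 25.2% of all promoters. The share was 41.2% in the promoters with the strongest 330 regions, 29.3% in the next 331 and 25.4% in the weakest 331. With 1 promoter per region it was 40% in the strongest 20, 32% in the strongest 50 and 38% in the strongest 100, against 33.2% over all 868, so it did not climb further at the top. It rose with the number of libraries, from 18.3% for gene-end regions of 1 library to 24.1% for 2 and 32.0% for all 3. The hexamers are poor in G and C, and promoters were therefore compared within ranges of G and C content. Between 50% and 60% G and C, 34.6% of covered promoters held a hexamer against 26.2% of all promoters in that range. Between 60% and 70% these shares were 25.1% against 14.1%, and at 70% or more 46.5% of 86 against 11.1%. Below 50% they were 41.2% of 68 against 40.9%, so the excess lay in promoters of 50% G and C or more. The element TCTCGCGA was more frequent in covered promoters in all 4 ranges, with 16.7% against 2.86% between 60% and 70%.

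Several motifs of ordinary active promoters were more frequent too. The sites of YY1 (AAGATGGCG) were in 5.04% of covered promoters against 1.84% of all, of NRF1 (GCATGCGC) in 9.38% against 3.54%, of ETS factors (CCGGAAGT) in 12.7% against 5.20% and of NFY (GCCAAT) in 29.9% against 17.0%. From the strongest to the weakest group of promoters, NFY sites were in 32.7%, 30.8% and 26.3%, NRF1 sites in 9.39%, 7.85% and 10.9% and ETS sites in 10.0%, 13.3% and 14.8%. The CRE (TGACGTCA) was in 3.83% against 2.26%, GGGGCGGGG of SP and KLF factors in 19.2% against 15.5%, and the E-box CACGTG in 10.1% against 7.91%. Within ranges of G and C content these 3 and the YY1 sites were not more frequent throughout. Between 60% and 70%, the range of 430 covered promoters, the CRE was in 2.56% against 3.50%, the SP and KLF string in 27.4% against 26.1% and CACGTG in 10.2% against 11.3%. At 70% or more the SP and KLF string was in 37.2% against 42.1% and the YY1 string in 1.16% against 2.19%. The RFX motif GTTGCC, in 14.8% against 12.3%, and the octamer ATGCAAAT, in 2.32% against 1.68%, differed by smaller margins. Between 50% and 60% GTTGCC was in 13.5% against 14.3%, and at 70% or more the octamer was in 0% against 0.558%. The NFI motif TTGGCA, in 10.7% against 13.1%, the E-box CAGCTG, in 12.3% against 15.7%, and AP-1 (TGACTCA), in 2.92% against 4.69%, were less frequent in covered promoters. At 70% or more, however, TTGGCA was in 9.30% against 4.61% and CAGCTG in 17.4% against 14.6%. TTGGCA can overlap GCCAAT read on the other strand. Also added after the data were seen, AACAAT was in 8.47% of covered promoters against 8.91% of all. By G and C content it was in 13.2% against 19.7% below 50%, 12.3% against 7.53% between 50% and 60%, 4.19% against 2.49% between 60% and 70% and 8.14% against 1.64% above. From the strongest to the weakest group of promoters it was in 12.1%, 6.95% and 6.34%. TTATGCAA was in 1.11% against 0.799%.

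**Figure D5:**
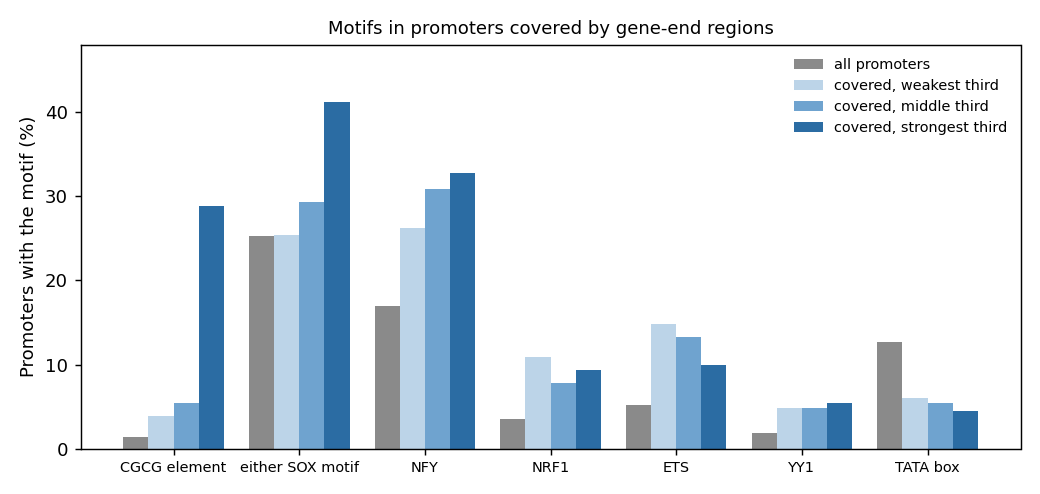
Percent of promoter windows with a motif among all 21019 protein-coding promoters (grey) and among the 992 covered by a gene-end region, split by the strength of the region (light to dark blue, weakest to strongest). The CGCG element is TCTCGCGA, at 1.42% of all promoters and 28.8% of those with the strongest regions, and either SOX hexamer is at 25.2% and 41.2%.

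The limit of 1 kb is a choice, and regions on either side are given for scale. The last 3 regions inside it, at 998.5 to 999.5 bp from an end of Npm1, Crb2 and Dclk2, held a mean of 9.20, 5.24 and 16.7 normalized tags. The first 3 outside, at 1000.5 to 1008.5 bp from Ggact, Hbp1 and Kcna2, held 10.6, 11.9 and 15.0.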

How the data were processed

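Peak lists of 3 SOX2 IP libraries were used; the input enters through their columns. Bowtie 1.0.0, HOMER 4.7 and mm10 are named in the submitters' processing notes. The authors ran findPeaks in factor mode on each library, per the file headers, against the input (at least 4-fold over input and over the surrounding 10000 bp, Poisson p-value at most 0.0001, false discovery rate 0.001), with a minimum of 14, 13 and 16 tags, so weak regions lie near the threshold. Per the file headers, normalized tags are a signal scaled to 10000000 tags. Input tags are a deposited signal with a floor of 0.5, the tags of a peak were deposited as unscaled counts for library 2 alone, folds are the authors' ratio, the focus ratio is the authors' fraction, and the peak score of the authors was read but not reported. In library 3 up to 2 tags per bp were counted, in the others 1.

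Regions were merged and placed as the report describes, with the strand taken from the RefSeq promoter table, which holds no window on chromosome 18. The library is the replicate, and differences of medians were tested with an exact sign permutation test over libraries. Placement was tested on simulated data. Named genes are the 20 strongest gene-end regions with at least 4-fold enrichment in each library, the up to 3 strongest genes of each list, and Sox2. The other genes named were chosen after their values were seen. Members, lists and motifs were chosen with earlier results of these data known. Alternatives were another overlap, stricter peaks, other windows, another centre, no chained regions and each library left out. Scripts ran under scipy 1.17.1, pandas 2.3.3, matplotlib 3.10.9, numpy 2.4.6 and Python 3.11.15.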

Additional observations from a re-analysis of the deposited data

How the results depend on the processing

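The count of 1847 gene-end regions was 1009 with only peaks of at least 8-fold over the input and 1004 with the stronger 0.5 of peaks per library, and the genes with such a region numbered 1156 and 1149. The share of reproducible regions at gene ends was 17.9% under both, 17.0% with a 0.5 kb window and 23.4% with 2 kb. The share at starts was 94.9% with 0.5 kb and 89.9% with 2 kb. The difference in normalized tags between starts and finishes turned to 0.072 on the log2 scale under a required overlap of 0.5 of each peak and to 0.014 with the stronger peaks. The cause was not tested. Covered promoters with a SOX hexamer were 35.8% with the stronger peaks. Those with TCTCGCGA were 15.0% with the overlap of 0.5, 16.3% with the 8-fold peaks and 19.9% with the stronger peaks. The lower tags and folds of gene-end regions kept their sign under all 10 alternatives, each omission of a library included, and so did the higher focus ratio. The difference in normalized tags was the same -0.104 on the log2 scale in the main setting, with both other windows and with the other centre. Medians of tags move in steps of whole tags, so these settings were a weak check on it. The difference in fold over the input was -0.072 on the log2 scale with the 8-fold peaks, a threshold on the same measure. Of 270 list counts under the alternatives, 45 moved by over 1.5 times. Each difference of medians above was taken within an IP library, so these comparisons were already paired by library. No pairing of IP and input libraries was possible, because the input has no peak list of its own. A region needed about the minimum of 13 to 16 tags in each library, so weaker regions could not be seen.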
